A study of Mus musculus with 19 samples.

Results

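Tendon and cartilage markers were followed through mouse tibialis anterior muscle, the dorsiflexor at the front of the lower leg, taken 12 h after 50 eccentric contractions, the kind of work that stretches a muscle while it is active. The 8 genes are Tnmd, Fmod, Comp, Chad, Thbs4, Cilp, Acan and Col2a1, given by name. Each is represented by its brightest probe set among those assigned to 1 gene symbol. Of the 8, 7 had such a probe set among 12393 genes, and Cilp (cartilage intermediate layer protein) was not analysed here. All animals were 129/SVE. The 4 groups were wild type at 7 to 9 weeks (WT_Adult, 5 arrays), wild type at 12 to 14 months (WT_Aged, 5), Des(-/-) at 7 to 9 weeks (KO_Adult, 5) and Des(-/-) at 12 to 14 months (KO_Aged, 4). Des encodes desmin, the intermediate filament protein of muscle, and the deletion is not limited to the tendon or to the fibres by anything in the labels. The contractions were common to the 4 groups, and muscle at rest was not analysed here. Separate animals are not stated for the arrays of a group, so the p-values measure only how these arrays spread, which may be technical.

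Tendon cells (tenocytes) make a matrix of parallel collagen fibrils that carries the force of the muscle to bone, and the tendon of the tibialis anterior runs into the muscle belly. Tenomodulin (Tnmd) is a membrane protein used as the marker of mature tenocytes. Fibromodulin (Fmod), cartilage oligomeric matrix protein (Comp), chondroadherin (Chad) and thrombospondin 4 (Thbs4) are secreted into the matrix, where they bind collagen, and most of them are shared by tendon and cartilage. Aggrecan (Acan) and the type II collagen chain Col2a1 are the main proteoglycan and collagen of cartilage itself. In a piece of whole muscle, fewer tendon cells, less RNA per tendon cell and less RNA of these genes from other cells cannot be told apart.

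The proximal promoters of 3 of the markers that moved together across arrays are shown as the 250 bases before the annotated start of the gene (RefSeq, GRCm38.p6). Capitals mark an E-box, the letters CANNTG on either strand, which is the kind of site bound by basic helix-loop-helix factors such as the tendon factor scleraxis. The Tnmd window is chrX:133850758-133851007, the Fmod window chr1:134037004-134037253 and the Chad window chr11:94564797-94565046, all on the plus strand.
Tnmd: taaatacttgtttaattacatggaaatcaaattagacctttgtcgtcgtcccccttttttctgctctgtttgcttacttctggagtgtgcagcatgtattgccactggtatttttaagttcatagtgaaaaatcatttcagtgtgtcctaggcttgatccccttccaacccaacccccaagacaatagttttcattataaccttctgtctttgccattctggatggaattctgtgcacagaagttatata
Fmod: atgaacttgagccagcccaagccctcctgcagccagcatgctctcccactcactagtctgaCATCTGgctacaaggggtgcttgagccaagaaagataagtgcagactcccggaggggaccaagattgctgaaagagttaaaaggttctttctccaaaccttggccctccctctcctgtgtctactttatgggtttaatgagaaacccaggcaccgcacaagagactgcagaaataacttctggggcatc
Chad: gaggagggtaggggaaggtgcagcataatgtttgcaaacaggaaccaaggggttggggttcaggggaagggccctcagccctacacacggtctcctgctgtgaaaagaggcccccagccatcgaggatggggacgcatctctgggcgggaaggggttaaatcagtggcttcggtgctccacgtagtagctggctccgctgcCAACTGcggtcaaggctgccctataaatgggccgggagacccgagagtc

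The Fmod window held 1 E-box, CATCTG, beginning at base -189 from the start, and the Chad window held 1, CAACTG, beginning at base -49, followed by a TATAAA at base -28. No CANNTG was found in these 250 bases of Tnmd. Thbs4 held 1 (CAAATG at base -115) and Acan 1 (CAGCTG at base -179). A CANNTG occurred in 66.2% of 32851 mouse promoter windows of the same length and TATAAA in 12.4%, so their presence does not set these genes apart.

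The arrays themselves were uneven in ways that touch every result here. The dap poly-A control, an RNA that is added to a sample during labelling, was at 1184 to 3103 on 8 arrays and at 1 to 17.4 on 11. The 8 are the whole of WT_Aged together with replicates 3, 4 and 5 of KO_Adult. Arrays with and without this control are treated below as 2 labelling batches, a name for the control's level only. The probe set for the middle of 18S ribosomal RNA divided the same arrays, at 5835 to 19660 on the 8 and 29.1 to 181 on the 11, and its part in the contrasts between batches was not tested. WT_Aged against WT_Adult and KO_Aged against WT_Aged lie wholly across it, and KO_Adult is the only group with arrays on both sides. The Gapdh 3' to 5' ratio, a measure of RNA integrity, was 8.61 and 5.01 on KO_Aged replicates 2 and 3 and at most 0.968 elsewhere. Des, the targeted gene, read 10749 to 22313 on wild-type arrays and 72.7 to 879 on Des(-/-) arrays, with no overlap. The summed signal of 12 muscle fibre markers, led by Tnnt3, Tnni2 and Mylpf, was 249185 to 468923 on the 19 arrays.

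Tnmd varied more between arrays of a group than between groups. In WT_Adult its signal was 298, 470.2, 505, 168 and 129.8 on replicates 1 to 5. In WT_Aged it was 162, 102.9, 369, 268 and 205, and in KO_Adult 353, 376, 102, 92.6 and 340.1. In KO_Aged it was 69.4, 367, 159.8 and 210.4 on replicates 1 to 4. Low and high arrays occurred in every group, and all 4 groups overlapped. The high array of KO_Aged was replicate 2, whose Gapdh 3' to 5' ratio was 8.61, and it sets the upper end of that group's range. The lowest and the highest array differed 7.27-fold over the whole set, 3.89-fold in WT_Adult, 3.58-fold in WT_Aged, 4.06-fold in KO_Adult and 5.29-fold in KO_Aged. The pooled within-group standard deviation of Tnmd was 0.94 on the log2 scale, larger than that of 97.2% of the 7436 genes tested, whose median was 0.36.

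Fmod, a small leucine-rich proteoglycan that binds collagen fibrils and affects their thickness, was low on many of the same arrays. In WT_Adult it read 1504, 2757, 2079, 502 and 722. In WT_Aged it read 2114, 1102, 3514, 2109.6 and 2034, with replicate 2 lowest as for Tnmd. In KO_Adult it read 2518, 1752, 771, 674 and 1245. The 2 KO_Adult arrays without poly-A controls were above the 3 with them. In KO_Aged it read 1266, 1789, 1195 and 1758, the narrowest group, and all groups overlapped. Its pooled standard deviation was 0.76 (log2), larger than in 94.0% of tested genes.

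Comp, which binds fibrillar collagens in tendon and cartilage, read 179.7, 315, 452, 142 and 106 in WT_Adult. In WT_Aged it read 399, 205, 553, 491 and 499, so all but replicate 2 were above every WT_Adult array except replicate 3. In KO_Adult it read 393, 297, 66.02, 87.8 and 178. In KO_Aged it read 219, 122, 205 and 284, so that every KO_Aged array was below the other 4 WT_Aged arrays, and the groups overlapped only at WT_Aged replicate 2. The pooled standard deviation was 0.81 (log2), larger than in 95.1% of tested genes.

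Thbs4, a thrombospondin of tendon and muscle matrix, was the steadiest of the markers. It read 4619, 5821, 4785, 3274 and 2677 in WT_Adult. In WT_Aged it read 5203, 3203, 5106, 4902 and 4664. In KO_Adult it read 4313, 4109.9, 2055, 2059 and 2387, so that the 3 arrays with poly-A controls were lower than every other array of the study. In KO_Aged it read 4682, 4794, 3914 and 2979. Its pooled standard deviation was 0.39 (log2), larger than in 59.4% of tested genes.

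Chad, a leucine-rich matrix protein that binds collagen and integrins, covered the widest range. It read 150.2, 387, 379.9, 23.3 and 58.7 in WT_Adult. In WT_Aged it read 94.5, 8.48, 251, 74.5 and 102. In KO_Adult it read 242, 105, 11.9, 27.0 and 3.41. In KO_Aged it read 45.1, 59.9, 39.3 and 118. WT_Adult replicate 4, WT_Aged replicate 2 and KO_Adult replicates 3 to 5 were the 5 lowest arrays, and the groups overlapped. Its pooled standard deviation was 1.56 (log2).

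Acan and Col2a1 were dim throughout. Acan read 4.19 to 43.9 and Col2a1 3.72 to 52.7 over the 19 arrays. The mean of Acan lay at percentile 22.3 and that of Col2a1 at percentile 19.1 of 12393 genes, and with Chad, at percentile 39.2, they stayed below the filter on dim genes that kept the upper 60%. Other defining cartilage genes were dim as well: of 16 measured, 2 passed the filter, Sox6 and Sox9, and Cnmd (chondromodulin, the cartilage relative of Tnmd) had a median of 2.72 in WT_Adult, 3.09 in WT_Aged, 10.1 in KO_Adult and 14.0 in KO_Aged. The tendon transcription factor Scx was also under the filter, with group medians of 87.0 in WT_Adult, 99.8 in WT_Aged, 83.3 in KO_Adult and 62.1 in KO_Aged.

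**Figure D1:**
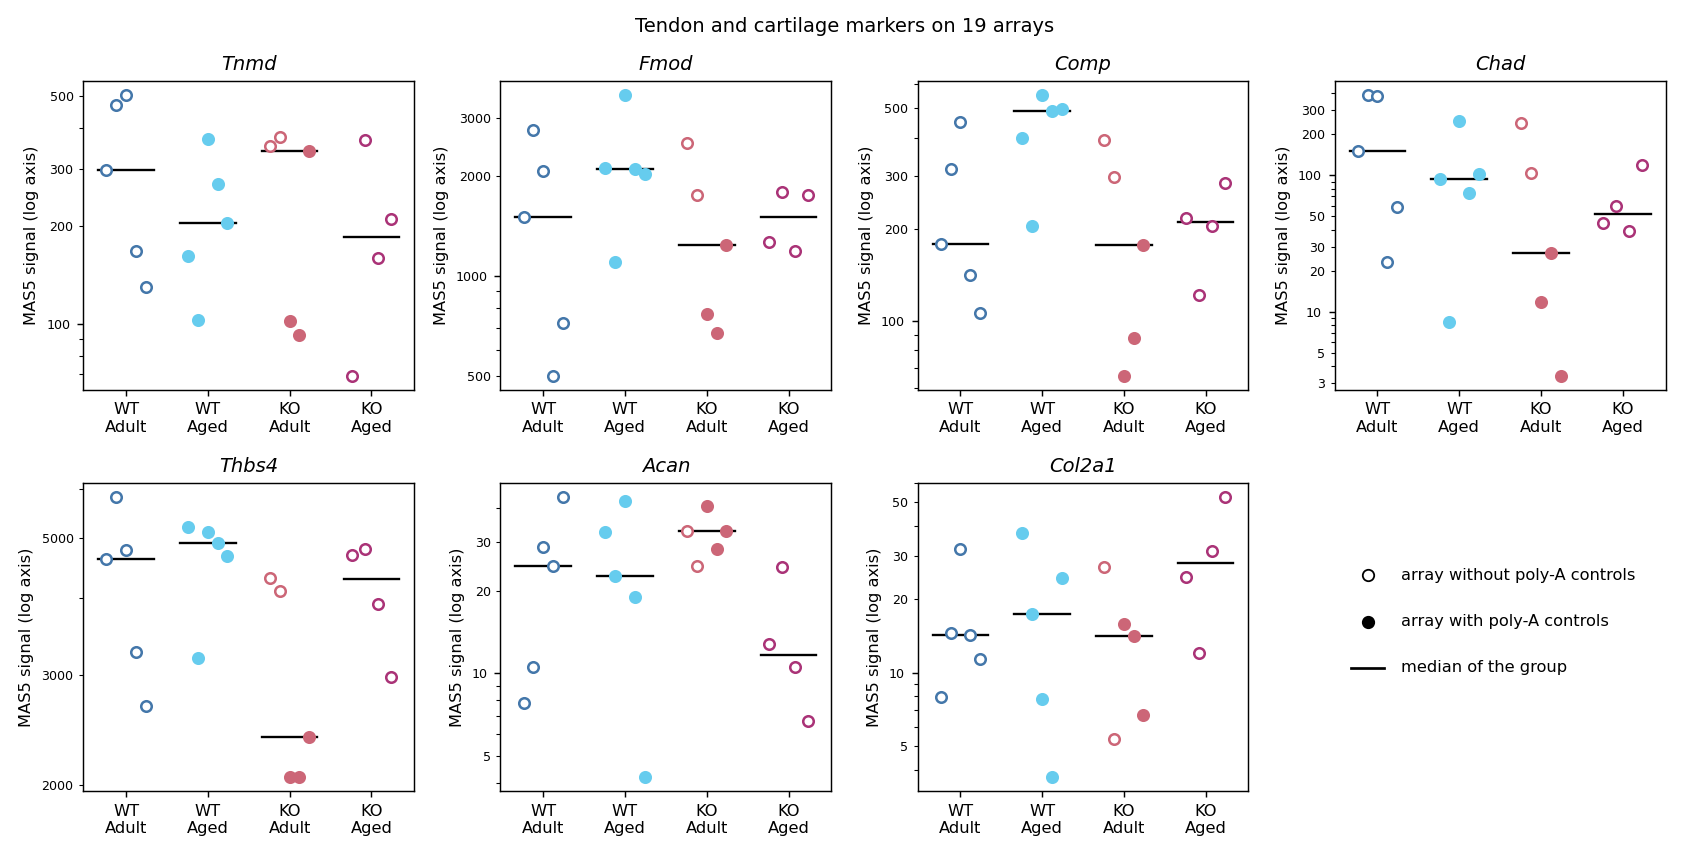
MAS5 signal (log axis) of the 7 measured markers on each of 19 arrays, by group; filled points are arrays with poly-A controls, open points arrays without, and bars group medians. Low and high arrays of Tnmd occur in every group, and those of Chad in every group except KO_Aged (39.3 to 118). The 3 filled KO_Adult points lie below the 2 open ones for Tnmd, Fmod, Comp, Chad and Thbs4.

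The markers were low together. After quantile normalization, Tnmd, Fmod, Comp, Chad and Thbs4 were all below their own 19-array medians on 5 arrays, WT_Adult replicates 4 and 5, KO_Adult replicates 3 and 4 and KO_Aged replicate 3. None of the 5 was below its median on WT_Adult replicates 2 and 3, WT_Aged replicates 3, 4 and 5 and KO_Adult replicate 1. Acan and Col2a1 did not take part in this.

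Co-variation was measured as the correlation with Tnmd over the 19 arrays after each group's mean was subtracted, with Tnmd permuted within groups (100000 draws, 2-sided) and p-values adjusted over the 6 relations. Fmod had r = 0.84 (adjusted permutation p = 0.00018; Spearman rho 0.84, adjusted p = 0.00030). Comp had r = 0.76 (adjusted permutation p = 0.00447; rho 0.71, adjusted p = 0.00644). Chad had r = 0.66 (adjusted permutation p = 0.0145; rho 0.70, adjusted p = 0.00644). Thbs4 had r = 0.64 (adjusted permutation p = 0.0213; rho 0.56, adjusted p = 0.0386). Thus 4 of 6 relations passed. The share of all tested genes that would pass this test was not computed. Among the 7435 other tested genes, 31.7% had r above 0.5 with Tnmd, and 18.8% exceeded Thbs4. Acan, at r = -0.06 (adjusted p = 0.820, rho 0.07), and Col2a1, at r = -0.15 (adjusted p = 0.660, rho -0.17), did not pass.

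The 2 arrays farthest from the median in Tnmd, after group means were subtracted, were KO_Aged replicate 1 and WT_Adult replicate 5. Without them r was 0.88 for Fmod, 0.79 for Comp, 0.67 for Chad and 0.80 for Thbs4, and all 4 passed. Inside the labelling batches the relations were less firm. Over the 8 arrays with poly-A controls r was 0.90 for Fmod and 0.92 for Comp, which passed (adjusted permutation p = 0.0215 for each), 0.68 for Thbs4 and 0.28 for Chad, which did not. Over the 11 arrays without them r was 0.77 for Fmod, 0.61 for Comp, 0.75 for Chad and 0.49 for Thbs4, and none passed (adjusted permutation p from 0.0682 to 0.306). With the mean of each group in each batch subtracted, Fmod (r = 0.81, adjusted permutation p = 0.00084) and Comp (r = 0.71, adjusted p = 0.0152) passed, and Chad (0.58, adjusted p = 0.0511) and Thbs4 (0.55, adjusted p = 0.0709) did not. In that setting 28.3% of the other tested genes had r above 0.5 with Tnmd. Fmod was exceeded by 1.90% of them, Comp by 8.46% and Thbs4 by 23.4%. Such shares were not computed inside a single batch.

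**Figure D2:**
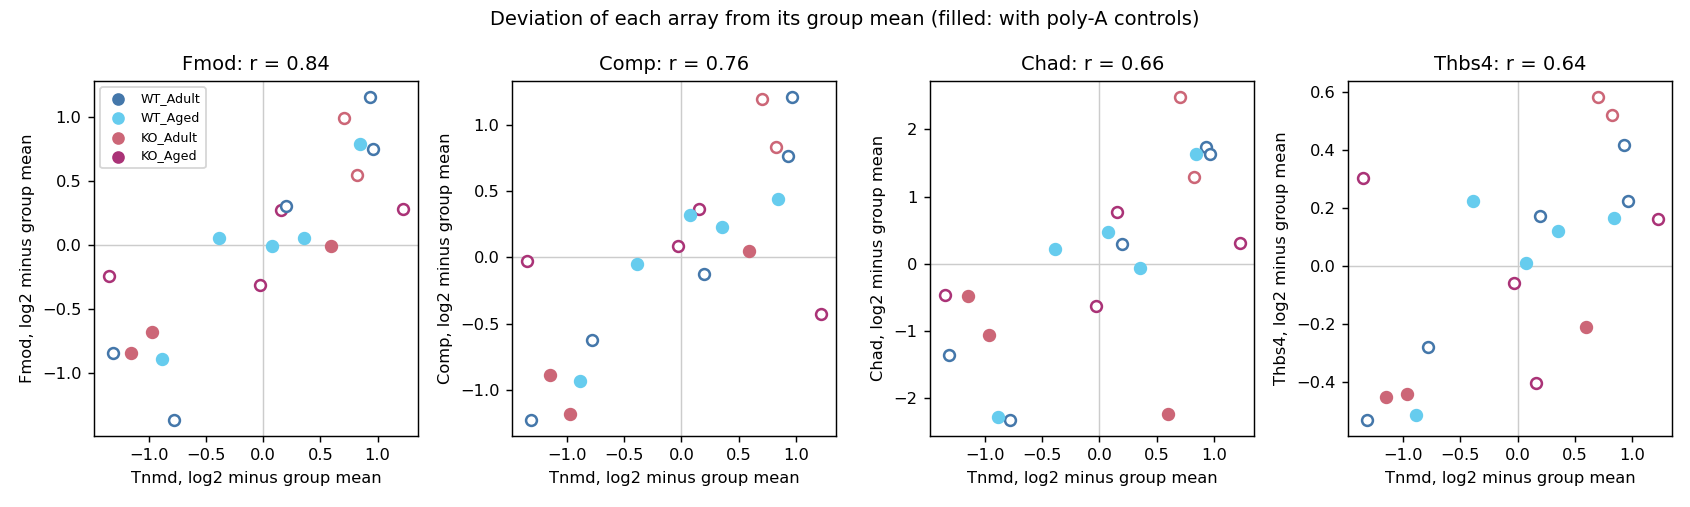
Deviation of each array from its group mean (log2) for Tnmd on the horizontal axis and Fmod, Comp, Chad or Thbs4 on the vertical axis; colours are groups and filled points arrays with poly-A controls. The points of Fmod lie closest to a line (r = 0.84) and those of Thbs4 least so (r = 0.64), with vertical scales that differ between panels.

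Following Tnmd was common on these arrays. Of the 7435 other tested genes, 2357 (31.7%) had r above 0.5 with Tnmd, and the median r was 0.26. Many others ran against Tnmd. In bins of r the fullest held 410 genes, from 0.65 to 0.7, and a second peak held 243, from -0.75 to -0.7. Fmod was exceeded by 1.197% of them, Comp by 6.59% and Thbs4 by 18.8%. The 10 tested genes most like Tnmd were Scara3 (r = 0.93), Tomm40l and Gnb5 (0.92 each), Blnk (0.91) and Sdhaf1, Endog, Tm2d2, Eepd1, Cpxm2 and Ndufaf3 (each 0.90). Fmod was most like Khk (0.89), Tsen34 (0.88) and Cpxm2 (0.86), Comp most like Wbp1 (0.92), Smpd1 (0.88) and Add1 (0.88), and Thbs4 most like Slit3 (0.92), Ech1 (0.90) and Tcn2 (0.90), all over the same 19 arrays. These nearest genes were sought among tested genes, which leaves out Chad. Among the markers themselves, Fmod and Chad were the closest pair (r = 0.89), followed by Fmod and Comp (0.86), so that Chad was about as near to Fmod as Khk.

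Other genes of tendon and of the fibroblast matrix were read from lists. Of 14 tested genes among other tendon genes and small leucine-rich proteoglycans, 4 had r above 0.5 with Tnmd, where 31.7% of all tested genes did. That share sets nothing apart about the list. The 4 were Col14a1, a fibril-associated collagen (0.77), Prelp (0.76), Tppp3, which marks cells of the tendon sheath (0.69), and Bgn, biglycan (0.55). Another 5 had r below 0, namely Thbs1 (-0.58), Ogn, osteoglycin (-0.31), Aspn, asporin (-0.25), Prg4, the lubricin of gliding surfaces (-0.25), and Tnc (-0.04), and the list's median was 0.09. Dcn and Lum, decorin and lumican, abundant proteoglycans of connective tissue, were at 0.11 and 0.06. Of 18 fibroblast markers, 13 had r above 0.5, with a median of 0.63, led in signal by Col3a1, Sparc and Col1a2. Some markers of other cell types did too, with 2 of 3 Schwann cell markers (median 0.60) and 3 of 6 myeloid markers (0.33). So did 1 of 2 adipocyte markers (0.11) and 1 of 6 endothelial markers (0.22). None of the 2 erythroid, 2 other cartilage and 1 bone markers did. Of 12 muscle fibre markers none did, and their median was -0.19. These are descriptions of the same 19 arrays, and genes are not independent of each other.

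**Figure D3:**
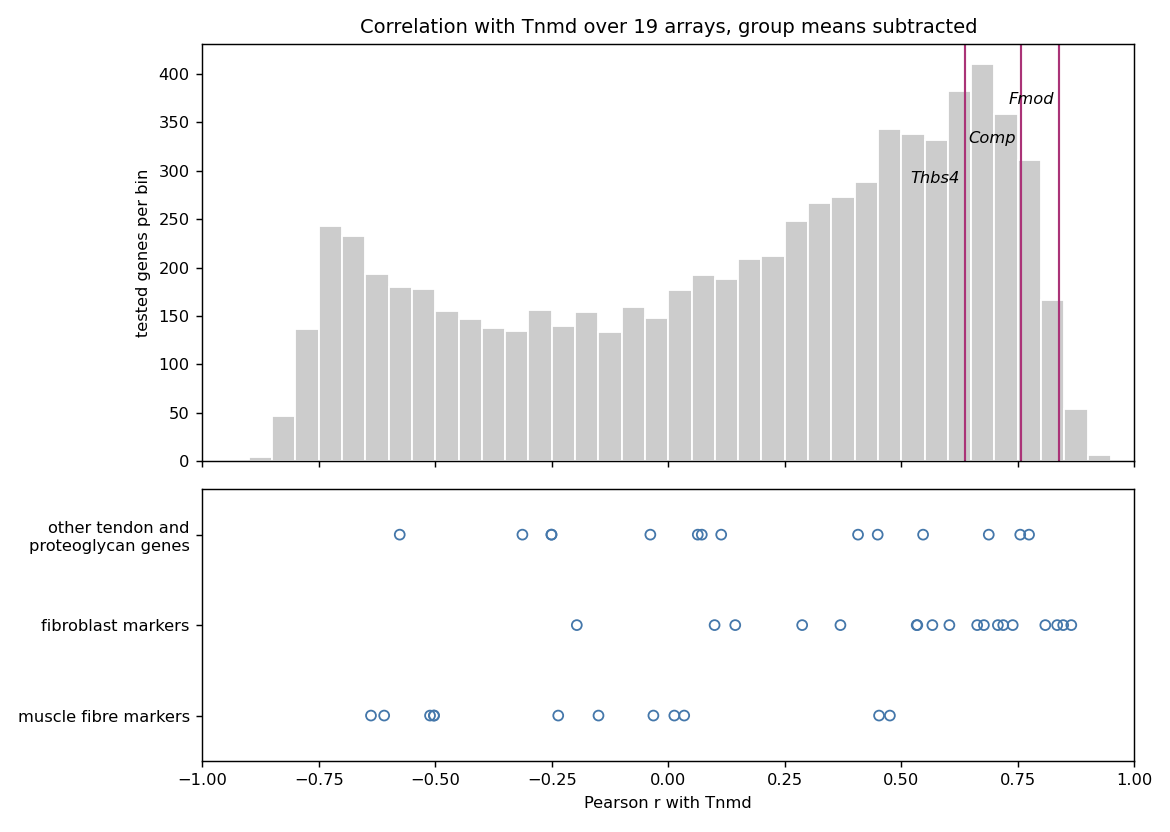
Upper panel, number of tested genes per bin of Pearson r with Tnmd (group means subtracted, 19 arrays), with Fmod, Comp and Thbs4 marked; lower panel, the same r for each tested gene of 3 marker lists. The distribution leans to positive values (median 0.26) and has a second, lower peak near -0.7. Fibroblast markers lie mostly above 0.5, and muscle fibre markers do not. Lists of other cell types are not drawn.

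The loss of desmin in adult muscle was asked about by setting KO_Adult against WT_Adult. None of the 4 tested markers was called (limma, Benjamini-Hochberg adjusted p under 0.05), where 16.7% of all tested genes were. At an unadjusted p under 0.05 there was 1, Thbs4. Thbs4 differed by -0.59 on the log2 scale (SE 0.24, 95% interval -1.10 to -0.09, limma adjusted p = 0.0961). Tnmd differed by -0.16 (SE 0.54, interval -1.29 to 0.97), Comp by -0.09 (SE 0.47, interval -1.07 to 0.89) and Fmod by 0.01 (SE 0.44, interval -0.92 to 0.94). Each marker's 2 groups overlapped, while 10.1% of tested genes had groups that did not. The same held in the other comparisons of 2 groups, where 31.2% of genes (KO_Aged against WT_Aged), 29.4% (WT_Aged against WT_Adult) and 8.14% (KO_Aged against KO_Adult) had none.

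The Thbs4 value moved with the labelling batch. With the batch as a term of the model the Thbs4 difference was -0.04 (SE 0.25, limma adjusted p = 0.933), and 6.67% of tested genes were called. On arrays without poly-A controls, 2 of KO_Adult against 5 of WT_Adult, it was -0.04 (SE 0.28). There Comp was at 0.93 (SE 0.60), Fmod at 0.78 (SE 0.64) and Tnmd at 0.60 (SE 0.61), with none called among 1.01% of tested genes that were. Without KO_Adult replicate 1, or without replicate 2, both of which lack the controls, Thbs4 did pass, at -0.74 (limma adjusted p = 0.0368) and -0.72 (adjusted p = 0.0438). The share of all tested genes called in those 2 fits is not given here, and with all arrays it was 16.7%.

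Inside KO_Adult the markers followed the batch. The 3 arrays with poly-A controls were lower than the 2 without, with Comp at a log2 difference of -1.69 (SE 0.37, limma adjusted p = 0.0180), Fmod at -1.28 (SE 0.29, adjusted p = 0.0201) and Thbs4 at -0.92 (SE 0.16, adjusted p = 0.00955). Tnmd was at -1.27 (SE 0.51, limma adjusted p = 0.1004) and did not pass. So 3 of 4 were called lower where 17.5% of tested genes were, with 33.9% called in either direction. The arrays did not overlap for any of Tnmd, Fmod, Comp, Chad and Thbs4, and all 5 were lower with the controls, as against 61.2% of tested genes without overlap in either direction and 35.9% lower. The summed fibroblast signal (18 genes) was 13720 to 30251 on the 3 arrays and 36006 to 38194 on the 2, and that of muscle fibre markers 282176 to 337482 and 274940 to 313378. Sums were also lower on the 3 arrays, without overlap, for Schwann cell markers (4 genes, 1371 to 1651 against 2104 to 2315), erythroid markers (3 genes, 197 to 369 against 565 to 816), bone markers (6 genes, 138 to 202 against 214 to 262) and the other tendon genes (20 genes, 12715 to 17836 against 19240.4 to 21639), and higher for adipocyte markers (3 genes, 7556 to 10461 against 4674 to 6345). Those of endothelial, myeloid and other cartilage markers overlapped. Their part in the difference was not tested.

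In aged muscle, KO_Aged was set against WT_Aged for the same question. No tested marker was called, against 29.5% of tested genes, and 1 had an unadjusted p under 0.05. That was Comp, at -1.05 (SE 0.50, 95% interval -2.09 to -0.01, limma adjusted p = 0.119). Fmod was at -0.49 (SE 0.47), Tnmd at -0.31 (SE 0.57) and Thbs4 at -0.14 (SE 0.25). With the batch term Comp was lower by more, at -2.74 (SE 0.70, limma adjusted p = 0.0325), and was called, as were 5.49% of tested genes. Fmod was then at -1.77 (SE 0.72, 95% interval -3.27 to -0.26, limma adjusted p = 0.139), Thbs4 at -1.06 (SE 0.34, interval -1.78 to -0.34, limma adjusted p = 0.0714) and Tnmd at -1.59 (SE 0.91, interval -3.51 to 0.33), and none of these 3 passed. That term is estimated through the KO_Adult arrays alone. Fitted on these 2 groups only, the Comp difference of -1.05 had a SE of 0.28 and was also called (limma adjusted p = 0.0143, 37.4% of tested genes called). Genotype and labelling batch cannot be told apart between these 2 groups by themselves.

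A comparison of unlike ages within a batch sets 3 arrays of KO_Adult against 5 of WT_Aged, all with poly-A controls. The same 3 KO_Adult arrays enter the batch term above. Comp was at -1.85 (SE 0.36, limma adjusted p = 0.0116), Thbs4 at -1.09 (SE 0.18, adjusted p = 0.00606) and Fmod at -1.22 (SE 0.33, adjusted p = 0.0392), and all 3 were called, where 16.4% of tested genes were called and 7.96% lower. Tnmd was at -0.39 (SE 0.47, limma adjusted p = 0.588) and did not pass. Age and genotype cannot be told apart in it.

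For age in wild-type muscle, WT_Aged against WT_Adult, no tested marker was called while 38.9% of tested genes were. Comp had the only unadjusted p under 0.05, at 1.09 (SE 0.47, 95% interval 0.11 to 2.07, limma adjusted p = 0.0724). Fmod was at 0.72 (SE 0.44), Thbs4 at 0.13 (SE 0.24) and Tnmd at -0.29 (SE 0.54). Comp passed without WT_Adult replicate 3, at 1.39 (limma adjusted p = 0.0328), and without WT_Aged replicate 2, at 1.32 (adjusted p = 0.0467). The share of all tested genes called in those 2 fits is not given here, and with all arrays it was 38.9%. With the batch term Comp was at 2.78 (SE 0.68, limma adjusted p = 0.127) and 7 genes in all (0.0941%) were called. Fmod was then at 2.00 (SE 0.70, 95% interval 0.52 to 3.47, limma adjusted p = 0.240), Thbs4 at 1.05 (SE 0.33, interval 0.34 to 1.75, limma adjusted p = 0.203) and Tnmd at 0.99 (SE 0.89, interval -0.89 to 2.87), and none passed. Every WT_Aged array carried the poly-A controls and no WT_Adult array did, so age and labelling batch cannot be told apart in this pair.

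When the Tnmd level of each array was added to the model as a covariate, Comp and Fmod were called higher in WT_Aged against WT_Adult. These are differences at a given Tnmd level. Tnmd is itself 1 of the markers, and its correlation with the others came from these same arrays. Comp was at 1.28 (SE 0.32, limma adjusted p = 0.00466) and Fmod at 0.91 (SE 0.26, adjusted p = 0.00923), where 44.3% of tested genes were called. In the same model Thbs4 was called lower in KO_Adult against WT_Adult, at -0.55 (SE 0.19, limma adjusted p = 0.0489, 23.1% of genes called). It was called higher in KO_Aged against KO_Adult, at 0.70 (SE 0.21, limma adjusted p = 0.0322, 15.9% called). Each of these standard errors was smaller than without the covariate. The labelling batch was not in this model. With each array weighted by its agreement with its group, Thbs4 was called in KO_Adult against WT_Adult (-1.08, 51.1% of tested genes called), in KO_Aged against KO_Adult (0.79, 17.1%) and for the interaction (0.88, 52.9%).

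For age in muscle without desmin, KO_Aged against KO_Adult, no tested marker was called, with 7.44% of tested genes called. Thbs4 had the only unadjusted p under 0.05, at 0.58 (SE 0.25, 95% interval 0.05 to 1.11, limma adjusted p = 0.172), and with the batch term it was at 0.03 (SE 0.26), none of the 4 being called there among 9.98% of tested genes. Fmod was at 0.22 (SE 0.47), Comp at 0.13 (SE 0.50) and Tnmd at -0.44 (SE 0.57). The genotype by age interaction, which asks whether the effect of desmin loss differs with age, was called for none of the 4 markers, and none had an unadjusted p under 0.05, while 25.1% of tested genes were called. Its values were -0.96 (SE 0.68) for Comp, -0.50 (SE 0.65) for Fmod, 0.45 (SE 0.35) for Thbs4 and -0.15 (SE 0.79) for Tnmd. With the batch term 2 genes in all (0.0269%) were called, no marker among them, and Comp was at -3.66 (SE 1.06), Fmod at -2.55 (SE 1.09), Thbs4 at -1.02 (SE 0.52) and Tnmd at -2.19 (SE 1.39). Without the 2 arrays of high Gapdh ratio no marker was called in any of the 5 comparisons, where 17.7%, 14.2%, 40.2%, 1.57% and 14.6% of tested genes were, in the order above, and Tnmd was at -0.91 in KO_Aged against WT_Aged and -1.04 in KO_Aged against KO_Adult.

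**Figure D4:**
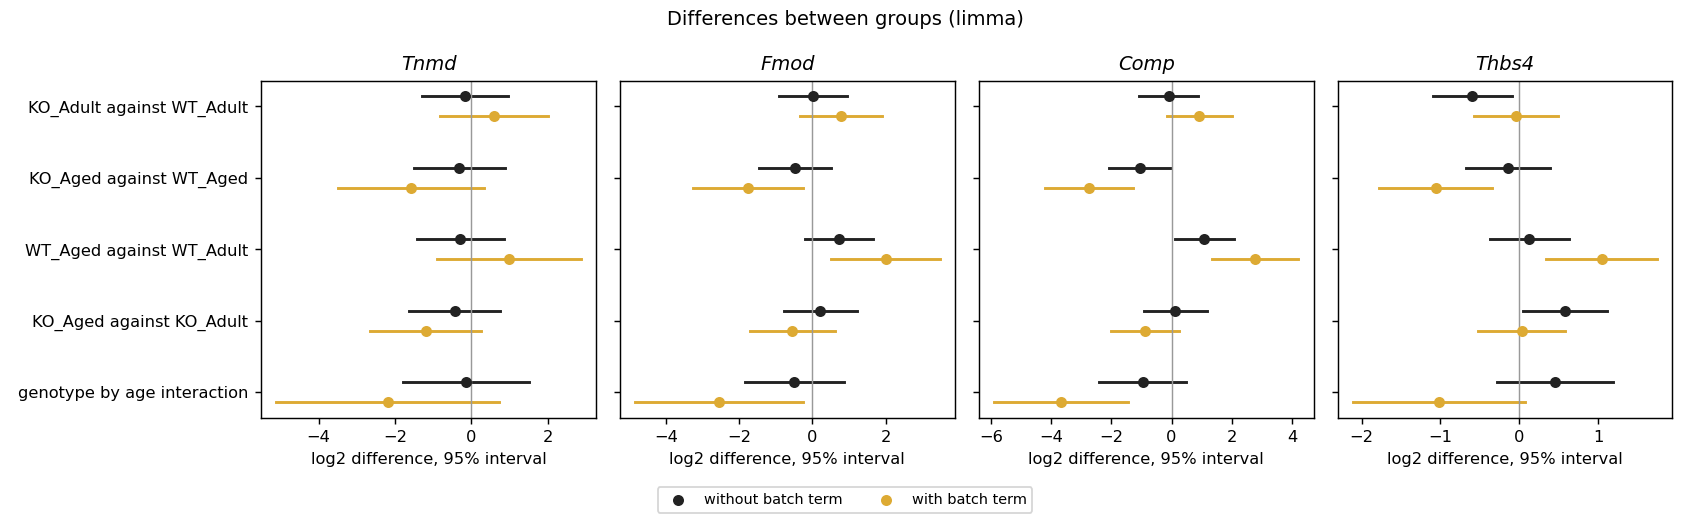
Log2 difference (point) and 95% interval (line) of the 4 tested markers in 5 comparisons, from the limma model without (black) and with (yellow) the labelling batch as a term; horizontal scales differ between panels. Without the term most intervals include 0, the exceptions being Comp in both comparisons with WT_Aged and Thbs4 in both with KO_Adult; with it the intervals are wider, and those of Comp, Fmod and Thbs4 in both comparisons with WT_Aged and of Comp and Fmod for the interaction lie off 0.

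The 3 dim markers are given from a fit of all 12393 genes, and none was called in any comparison, where 7.76% of genes (KO_Adult against WT_Adult), 17.5% (KO_Aged against WT_Aged), 22.7% (WT_Aged against WT_Adult), 2.88% (KO_Aged against KO_Adult) and 14.3% (interaction) were. Chad was at -1.38 (SE 0.91) in KO_Adult against WT_Adult and -0.54 (SE 0.91) in WT_Aged against WT_Adult. Acan was at -1.34 (SE 0.44, limma adjusted p = 0.102) in KO_Aged against KO_Adult and -1.72 (SE 0.60, adjusted p = 0.0644) for the interaction. Col2a1 was between 0.16 and 0.57 in the 5 comparisons. Chad's 95% interval in KO_Adult against WT_Adult ran from -3.29 to 0.54. With the batch term Chad turned in sign in 4 of the 5 comparisons. It was at 0.51 (SE 1.03) in KO_Adult against WT_Adult, 2.60 (SE 1.36) in WT_Aged against WT_Adult, -1.47 (SE 1.06, from 0.42) in KO_Aged against KO_Adult and -4.07 (SE 2.12, from 0.96) for the interaction. In KO_Aged against WT_Aged it was at -3.56 (SE 1.39, from -0.42).

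Fmod is the only marker here with more than 1 usable probe set, 6 in all. Their correlations with each other, group means subtracted, ran from 0.66 to 0.98, and with Tnmd from 0.61 to 0.90. In WT_Aged against WT_Adult they ran from -0.23 (SE 0.55) for 1415939_at to 1.32 (SE 0.44) for 1438966_x_at, and the latter was called (limma over all single-symbol probe sets, adjusted p = 0.0224). The same probe set was called in KO_Aged against WT_Aged at -1.49 (SE 0.47, limma adjusted p = 0.0217), where the others ran from -1.07 to -0.10. It read its highest on WT_Aged replicate 2, at 1027, where the other 5 were at their WT_Aged lowest. The main probe set, 1456084_x_at, lay between these extremes in both comparisons.

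**Figure D5:**
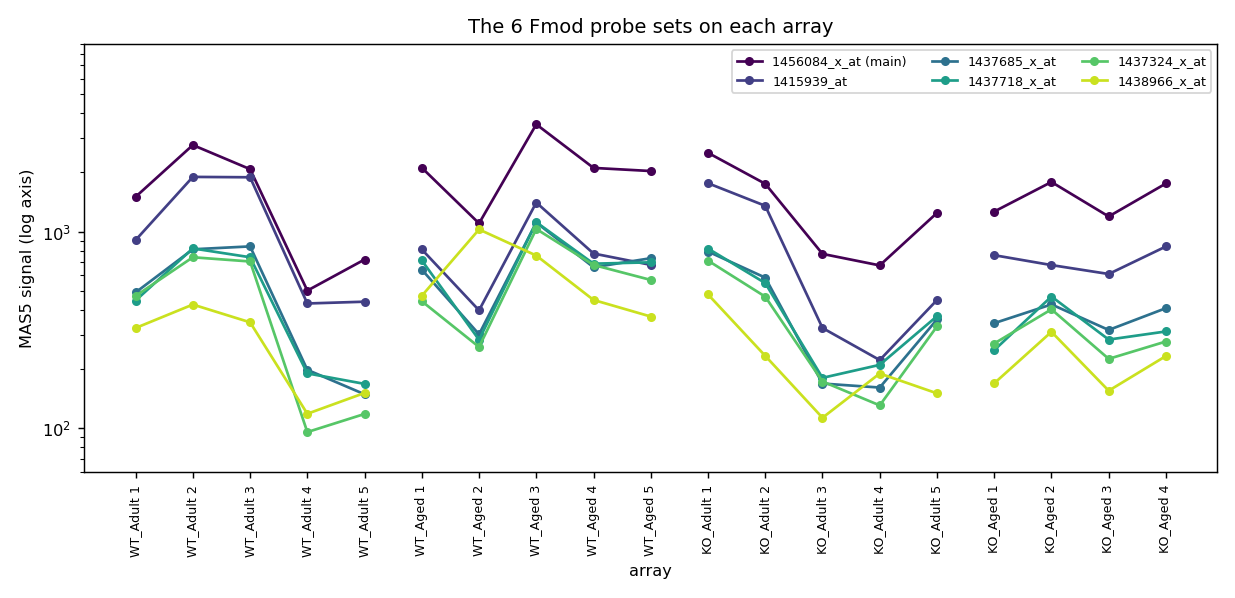
MAS5 signal (log axis) of the 6 Fmod probe sets on each of 19 arrays, lines joining arrays of a group. On WT_Aged replicate 2, 1438966_x_at is at its highest of that group and the other 5 at their lowest, and 1415939_at also departs from the rest in KO_Aged.

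Other tendon genes were called at a share near that of all tested genes in both comparisons with WT_Aged, which sets nothing apart about the list there. Of 20 measured genes on that list 14 were tested, and Mkx was not analysed here. In WT_Aged against WT_Adult 4 rose and 1 fell, where 18.1% of tested genes rose and 20.8% fell, with a list median of 0.38 against -0.03 for all tested genes. Prg4 rose by 1.91 (SE 0.31, limma adjusted p = 0.000247), from 1050.1 ± 315 (SD, n = 5) to 4086 ± 1370 (SD, n = 5), and Thbs1, Aspn and Thbs2 rose by 1.90, 1.25 and 0.67. Tppp3 fell, at -0.93 (SE 0.30). So 5 of 14 were called where 38.9% of all tested genes were, and none of the 5 passed with the batch term. Of the 18 fibroblast markers 8 fell and none rose in this comparison, with sums of 15183 to 23515 in WT_Aged and 24538 to 39225 in WT_Adult, and 2 of 6 myeloid markers rose. With the batch term none of these was called, and the fibroblast median went from -0.61 to 0.15. The part of these cell types was not tested.

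In KO_Aged against WT_Aged Tppp3 (1.83, SE 0.32) and Bgn (1.13, SE 0.22) rose and Angptl7 (-2.08, SE 0.69) and Thbs2 (-0.72, SE 0.25) fell, where 16.9% of tested genes rose and 12.5% fell, with a list median of 0.37 against 0.07 for all genes. Sox9, the transcription factor of chondrocytes, fell there too, at -1.84 (SE 0.53, limma adjusted p = 0.0142), and was at -0.21 with the batch term. None of these 5 passed with the batch term, and without the 2 arrays of high Gapdh ratio Tppp3 and Bgn passed and the other 3 did not. So 4 of 14 were called where 29.5% of all tested genes were. In the same comparison 6 of 18 fibroblast markers rose and 1 fell, all 3 tested Schwann cell markers rose (sums of 2049 to 3644 in KO_Aged and 1141 to 1686 in WT_Aged), and both tested erythroid markers fell (sums of 189 to 1132 and 3243 to 7684). With the batch term no fibroblast or Schwann cell marker was called, and both erythroid markers still were. The fibroblast median went from 0.63 to -0.46 and the Schwann cell median from 0.91 to 0.25. The part of these cell types was not tested. In KO_Adult against WT_Adult none of the 14 was called (5 at an unadjusted p under 0.05), and 1, Tppp3, was called with the batch term, at 1.45 (limma adjusted p = 0.00866).

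In KO_Aged against KO_Adult 3 rose and none fell, where 3.68% of tested genes rose and 3.75% fell. Prg4 rose by 1.81 (SE 0.32, limma adjusted p = 0.00381), from 1399 ± 389 (SD, n = 5) to 4814 ± 1740.2 (SD, n = 4), and passed with the batch term as well, at 1.68 (adjusted p = 0.0257). Tnc, tenascin C, a matrix protein of loaded and healing tendon, rose by 1.23 (SE 0.34) and passed with the term (limma adjusted p = 0.0402). Prelp rose by 1.25 (SE 0.35) and did not pass with it. Without the 2 KO_Aged arrays of high Gapdh ratio, Prg4 passed (1.94, limma adjusted p = 0.0185), and Tnc (1.24, limma adjusted p = 0.115) and Prelp (1.14, limma adjusted p = 0.209) did not. Of 6 myeloid markers 3 rose in this comparison, 1 of them also with the batch term, with sums of 9630 to 18569 in KO_Aged and 2983 to 6590 in KO_Adult, and their part was not tested. For the interaction Bgn (0.90) and Prelp (1.42) were called higher and Aspn (-2.19) and Thbs2 (-1.09) lower, where 14.3% and 10.8% of tested genes were, and none passed with the batch term or without the 2 arrays of high Gapdh ratio. Prg4 and Tnc, at r = -0.25 and -0.04, were not among the genes that followed Tnmd between arrays of a group.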

How the data were processed

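The deposited values are MAS5 intensities, 1 linear signal for each of 22690 probe sets on 19 arrays of total RNA; the authors made them with MAS5, per the submitters' processing notes, and its version and target scaling are not given in the sources used here. Probe sets were named from the platform annotation: 20380 had 1 symbol, 691 several, 1555 none, and 64 were controls. Without the controls, log2(value + 4.76), the 10th percentile of all values being added, was quantile normalized (array medians had spanned 0.63). The brightest probe set stood for a gene, and the upper 60% of 12393 genes, 7436, were tested.

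One mean per group was fitted across all genes with limma 3.58.1 (R 4.3.3), all 19 arrays sharing 1 spread, and p-values were adjusted by Benjamini-Hochberg over all tested genes and called under 0.05. Correlations and figures used Python 3.11.15 with numpy 2.4.6, pandas 2.3.3 and matplotlib 3.10.9. The fits were tested on simulated data. No pair of arrays was identical. The number of arrays limits the precision. Alternatives covered pseudocount, filter, normalization, probe set, batch, covariates, array weights and arrays left out. Named genes are all 8 markers, listed tendon and cartilage genes called in any comparison, Scx, Mkx, Sox9 and Cnmd, and the genes most like each tested marker. The markers, lists and tests were chosen with earlier results of these data known. In groups of 4 to 5 arrays none of 28 sets of marker values held an array beyond Dixon's limit, which chance passes about 1 in 20 times.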

Additional observations from a re-analysis of the deposited data

How the results depend on the processing

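Of 1264 recomputed values, 1140 kept their direction and call or, where untested, moved by less than 1 within-group standard deviation. Another 80 changed sign, 20 of them differences of Chad, Acan and Col2a1, and 0 of the 80 had an adjusted p under 0.05 where one was given. For Fmod in KO_Adult against WT_Adult the difference was -0.026 without normalization between arrays and -0.064 with the mean of all probe sets. It was -0.051 with the leading digits of the sample title codes taken as a random block, and -0.87 under array weights. For Fmod in KO_Aged against KO_Adult it was -0.042 with the mean of all probe sets and -0.55 with the batch term or on arrays without poly-A controls. With the batch term, Comp was at 0.93 and Tnmd at 0.60 in KO_Adult against WT_Adult (the same on arrays without poly-A controls), Tnmd at 0.99 in WT_Aged against WT_Adult, Comp at -0.88 in KO_Aged against KO_Adult and Thbs4 at -1.02 for the interaction. With the batch term and without the 2 arrays of high Gapdh ratio, KO_Aged against KO_Adult gave Comp at -0.71, Fmod at -0.53 and Thbs4 at -0.022, and the interaction gave Thbs4 at -1.07. Array weights gave Thbs4 at -0.092 in WT_Aged against WT_Adult, Tnmd at 0.038 in KO_Aged against KO_Adult, and Comp at 0.068, Fmod at 0.43 and Tnmd at 0.74 for the interaction, where Tnmd was at 0.13 without normalization. Comp in KO_Adult against WT_Adult was at 0.019 with the Tnmd covariate. The correlation of Acan with Tnmd was 0.014 with median centring, 0.029 with group means kept, 0.076 without the 2 farthest arrays, 0.10 with poly-A controls only and 0.0018 with batch means subtracted, and that of Col2a1 was 0.15 on arrays without controls. The cause of these changes was not tested.

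The number of called markers, 0 in each comparison, became 1 in KO_Aged against WT_Aged with the batch term and with only those groups fitted, 1 in KO_Adult against WT_Adult and in KO_Aged against KO_Adult with array weights and with the Tnmd covariate, 1 for the interaction with array weights, and 2 in WT_Aged against WT_Adult with the Tnmd covariate. The 4 markers correlated with Tnmd became 0 on arrays without poly-A controls, 2 on arrays with them and 2 with batch means subtracted, the last chosen after the data were seen, as were the fit of each Fmod probe set and that of the other tendon genes without the 2 arrays of high Gapdh ratio. With group means kept, Thbs4 had r = 0.44 (adjusted permutation p = 0.0868) and did not pass. Leaving out 1 array at a time gave 0 to 1 called in KO_Adult against WT_Adult and in WT_Aged against WT_Adult, and 0 in the other comparisons. It gave 3 to 4 correlated markers by Pearson r, Thbs4 not passing without WT_Adult replicate 5 (r = 0.57) or WT_Aged replicate 2 (r = 0.60). By Spearman rho Thbs4 did not pass without WT_Adult replicate 5, KO_Adult replicate 1, 2, 3 or 4, or KO_Aged replicate 3 (adjusted permutation p from 0.0526 to 0.0791). Differences then ranged, in KO_Adult against WT_Adult, from -0.39 to 0.21 (Comp), -0.49 to 0.12 (Tnmd) and -0.33 to 0.30 (Fmod); in KO_Aged against KO_Adult, from -0.17 to 0.43 (Comp), -0.85 to 0.013 (Tnmd) and -0.14 to 1.04 (Chad); for Tnmd from -0.72 to 0.14 in KO_Aged against WT_Aged and -0.56 to 0.30 for the interaction; in WT_Aged against WT_Adult, from -0.0030 to 0.26 (Thbs4) and -1.12 to 0.03 (Chad); and for Col2a1 in the interaction from -0.12 to 0.41. The Acan correlation ranged from -0.28 to 0.080. Arrays without poly-A controls allow only the comparisons of KO_Adult with WT_Adult and with KO_Aged, and the interaction needs all groups in the fit. No paired analysis was run, because the labels state no pairs of arrays. Codes in the sample titles differ on every array, and the labels do not say what they stand for. Cut to their leading 4 digits, they repeat on some arrays of a group. Only 1 code cut in this way is shared between groups, by WT_Aged replicates 4 and 5 and KO_Aged replicate 4. The number of genes called in WT_Aged against WT_Adult was 2891 without and 7 with the batch term.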
